A study of Mus musculus with 24 samples.

Results

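Retinoic acid genes were followed through a light and dark cycle in the mouse RPE (retinal pigment epithelium), a pigmented sheet of cells between the photoreceptors and the choroid. The genes were taken by name and comprise 10 of the 54532 genes in the count table: Aldh1a1, Aldh1a2 and Aldh1a3, which make retinoic acid, Dhrs3, which lowers the supply of its precursor, Cyp26a1 and Cyp26b1, which break it down, and the receptors Rara, Rarb, Rarg and Rxra. All 10 were among the 18065 genes with enough counts to test. Aldh1a3 had the lowest mean level, with 26 to 74 counts per library, and Cyp26a1 had as few as 14 counts in 1 library.

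Retinoic acid is made from vitamin A in steps: retinol is oxidised to retinal, and retinal is oxidised irreversibly to retinoic acid by the ALDH1A enzymes. CYP26 enzymes hydroxylate retinoic acid to forms that are cleared, and the acid acts through retinoic acid receptors (RARs) paired with retinoid X receptors (RXRs) on direct repeats of a short DNA motif. Cyp26a1 and Rarb are classic direct targets of these receptors, and the RPE is best known among retinoid tissues for the visual cycle, in which retinal is regenerated for the photoreceptors.

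The study set out to follow autophagy and lysosomal genes through the day. It took 3 mice at each of 8 times, counted from light onset (0, 1, 3, 5, 6, 9, 15 and 16 h), which gave 24 libraries. Every mouse was wild type, of the strain 129S1/SvlmJ with the Leu450 form of Rpe65, kept on a standard diet with 12 h of light a day that began at 7 am. The times 15 h and 16 h (night, 6 libraries) fall in the dark phase and 1 to 9 h (day, 15 libraries) in the light phase. A difference is said to be called where edgeR's p, adjusted over every gene tested, was below 0.05. Levels are given as CPM, a gene's counts relative to its library's TMM-scaled size.

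Libraries held 14073440 to 17492470 counts. RPE markers were abundant (37300 to 53000 CPM summed over 11 genes in 22 libraries), and markers of rods, choroid endothelium and fibroblasts were also present, so the libraries hold other cells beside RPE. In such bulk RNA, fewer cells of a type and less RNA per cell cannot be told apart. The third mouse of 6 h and that of 15 h (mouse 3 in each) stood apart on the first principal component, at 49.3 and 199.9, against -25.1 to -3.46 in the other 22 libraries, and their ribosomal protein genes took 2.53% and 5.67% of counts, against 1.22% to 1.78%. Results are therefore given for all 24 libraries and for the 22 without these mice.

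The promoters of Cyp26a1 and Rarb are shown because each held a direct repeat spaced by 5 bases (DR5), the classic arrangement of a retinoic acid response element, while only Cyp26a1 of the pair was called between night and day. The windows run from 250 bases before to 50 bases after the annotated start, 5′ to 3′ along the gene, from RefSeq on build GRCm38.p6, and capitals mark the repeat. The Cyp26a1 window is chr19:37697558-37697857 on the plus strand, and the Rarb window is chr14:16575427-16575726 on the minus strand. The Rarb window lies inside the gene, which runs from 16430839 to 16819156, and counts are by gene. Any Rarb transcripts that start elsewhere are counted too, so the level of Rarb need not be that of this promoter.
Cyp26a1: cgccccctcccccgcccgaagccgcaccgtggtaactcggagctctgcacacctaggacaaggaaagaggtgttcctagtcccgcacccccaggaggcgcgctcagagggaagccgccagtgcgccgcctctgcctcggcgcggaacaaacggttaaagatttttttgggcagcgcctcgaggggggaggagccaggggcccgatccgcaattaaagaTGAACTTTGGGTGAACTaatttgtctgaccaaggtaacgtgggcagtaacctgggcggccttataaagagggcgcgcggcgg
Rarb: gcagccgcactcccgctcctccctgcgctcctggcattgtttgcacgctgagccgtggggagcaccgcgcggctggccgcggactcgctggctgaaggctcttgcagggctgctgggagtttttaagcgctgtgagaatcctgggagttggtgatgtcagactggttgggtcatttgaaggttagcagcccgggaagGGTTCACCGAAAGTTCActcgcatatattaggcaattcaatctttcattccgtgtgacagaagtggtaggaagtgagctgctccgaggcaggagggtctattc
In Cyp26a1 the match lay on the opposite strand, from 32 to 16 bases before the start, and in Rarb on the gene's own strand, from 53 to 37 bases before it. Read in the same sense the 17-base repeats were as follows.
Cyp26a1 repeat: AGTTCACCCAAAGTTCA
Rarb repeat: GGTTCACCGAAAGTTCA
They shared 15 of 17 bases and differed by A1G and C9G, counted from the first base of the repeat, with the Cyp26a1 base given first and the Rarb base last.

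Both strands of 17 promoter windows of 9 members were searched for DR5 repeats in 3 forms, each with 5 bases of any kind between its motifs. The first form repeats the motif AGGTCA. The second repeats the motif AGTTCA. The last starts with the motif GGTTCA and ends with the second form's motif. It was added after the first 2 had been searched. It has the motifs of the Rarb repeat itself, so its match in Rarb is not an independent result. Of 32851 promoter windows in the mouse table, 3 (0.00913%), 8 (0.0244%) and 2 (0.00609%) held these forms in the order given, and the windows of Cyp26a1 and Rarb were the only ones among members. The single motifs AGGTCA and AGTTCA, which the repeats contain, were common, in 5340 (16.3%) and 4597 of all windows, and also lay in windows of Rara, Rarg and Rxra. The clock-related motif CACGTG, in 7.15% of all windows, lay in 2 overlapping windows of Rara, and the clock output motif TTATGTAA, in 0.938%, lay in no member's window. A match describes these letters and not binding.

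**Figure D1:**
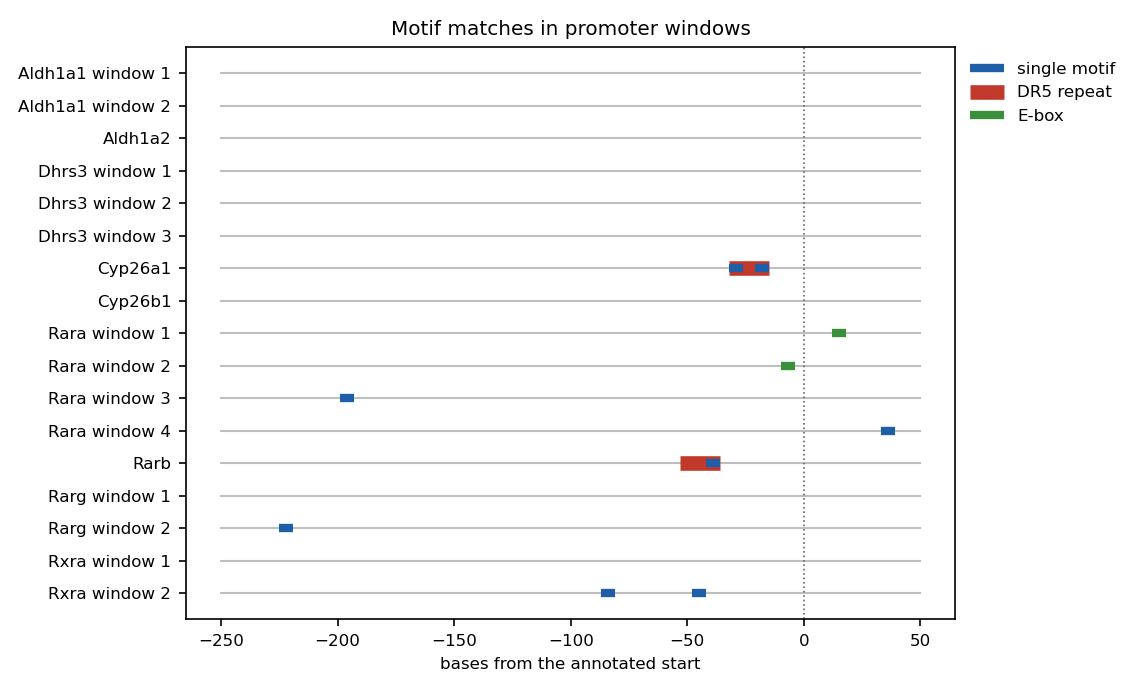
Motif matches in the 17 promoter windows of 9 members, by bases from the annotated start (dotted line). Thick bars mark DR5 repeats and thin bars single motifs (blue) or CACGTG (green, E-box); 2 single motifs lie inside the repeat of Cyp26a1 and 1 inside that of Rarb. Only Cyp26a1 and Rarb held a DR5 repeat.

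In all, 13 genes had a DR5 form in a promoter window, and 4 of them had enough counts to test. Cyp26a1 was the only one of these 4 called between night and day, where 0.88% of all genes were called higher and 0.509% lower. Rarb (log2 difference -0.08, adjusted p = 0.841), Blvrb, which encodes biliverdin reductase B (0.39, adjusted p = 0.265), and Tnfsf13b, the B cell survival factor BAFF (0.39, adjusted p = 0.509), were not called.

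Cyp26a1 (ENSMUSG00000024987, chromosome 19, 37697808 to 37701528, plus strand) was low at night. Mice at 0 h had 8.57, 11.2 and 5.23 CPM, at 1 h 16.6, 10.2 and 15.0 CPM, and at 3 h 13.7, 19.1 and 17.6 CPM. At 5 h the values were 6.18, 12.3 and 11.2 CPM, at 6 h 5.56 and 4.02 CPM and, in mouse 3, 14.1 CPM, and at 9 h 10.4, 8.06 and 11.5 CPM. Night libraries had 2.17, 2.52 and, in mouse 3, 3.78 CPM at 15 h, and 2.79, 1.49 and 1.01 CPM at 16 h. Values were highest at 3 h and lowest at 15 h and 16 h, and all 6 night libraries lay below all 18 libraries of 0 to 9 h.

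The night mean of Cyp26a1 was 2.29 ± 0.98 CPM (SD, n = 6) and the day mean 11.7 ± 4.46 CPM (SD, n = 15), a ratio of night to day of 0.196. The log2 difference was -2.34 (SE 0.28, adjusted p = 0.000131), and without the 2 libraries that stood apart -2.32 (SE 0.25, adjusted p = 1.35e-05). It was the only member called lower at night, where 0.509% of all genes tested were called lower, and 1.89% in 22 libraries. All night libraries lay below all day libraries in 0.083% of genes (0.21% in 22 libraries), and below all libraries of 0 to 9 h in 0.0443% (0.122%). The depth at night was 14 to 46 counts, against 64 to 342 counts by day, so single night values carry a large counting error.

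Over the 8 times the fitted levels of Cyp26a1 spanned 3.23 on the log2 scale (adjusted p = 0.00434), and a 24 h cosine fitted to them had a peak-to-trough log2 ratio of 2.52 ± 0.34 and a peak at 3.87 ± 0.67 h (jackknife SE over 24 libraries, adjusted p = 0.000768). In 22 libraries the span was 3.23 (adjusted p = 6.12e-05). The cosine rested on the night: without 15 h and 16 h the ratio was 0.94 and was not called (adjusted p = 0.734). The series covers 1 day and has no sample in the hours from 9 h to 15 h or later than 16 h, so recurrence and the time of the fall after 9 h were not measured.

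Against 0 h, Cyp26a1 was not called in 24 libraries at 15 h (log2 -1.57, SE 0.43, adjusted p = 0.072) or at 16 h (-2.22, SE 0.45, adjusted p = 0.0538). Without the 2 libraries that stood apart it was called at 15 h (-1.83, SE 0.40, adjusted p = 0.0281) and at 16 h (-2.21, SE 0.35, adjusted p = 0.00195), where 0.615% and 0.859% of genes were called lower. In the order of the time means in 22 libraries, the only neighbouring times whose values did not overlap were 6 h (4.79 CPM, n = 2) and 15 h (2.34 CPM, n = 2).

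Fibroblast markers also stood lower at night, at 1440 to 1970 CPM summed over 8 genes, against 1560 to 2230 CPM by day. Of these, Col1a1 (log2 -0.53) and Col3a1 (-0.57) were called. Choroid endothelium markers summed to 335 to 505 CPM at night and 365 to 871 CPM by day, with none of 8 called, and RPE markers to 40800 to 123000 CPM at night and 37300 to 57900 CPM by day. Mural cell markers summed to 579 to 772 CPM at night and 521 to 803 CPM by day, and of these Acta2 was called higher at night (log2 0.41, adjusted p = 0.0171). Without mouse 3 of 15 h and mouse 3 of 6 h the RPE sums were 40800 to 53000 CPM at night and 37300 to 50700 CPM by day, and the lowest fibroblast sum at night was 1540 CPM. The night and day ranges of these sums overlapped, and the part of these markers in the difference of Cyp26a1 was not tested.

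**Figure D2:**
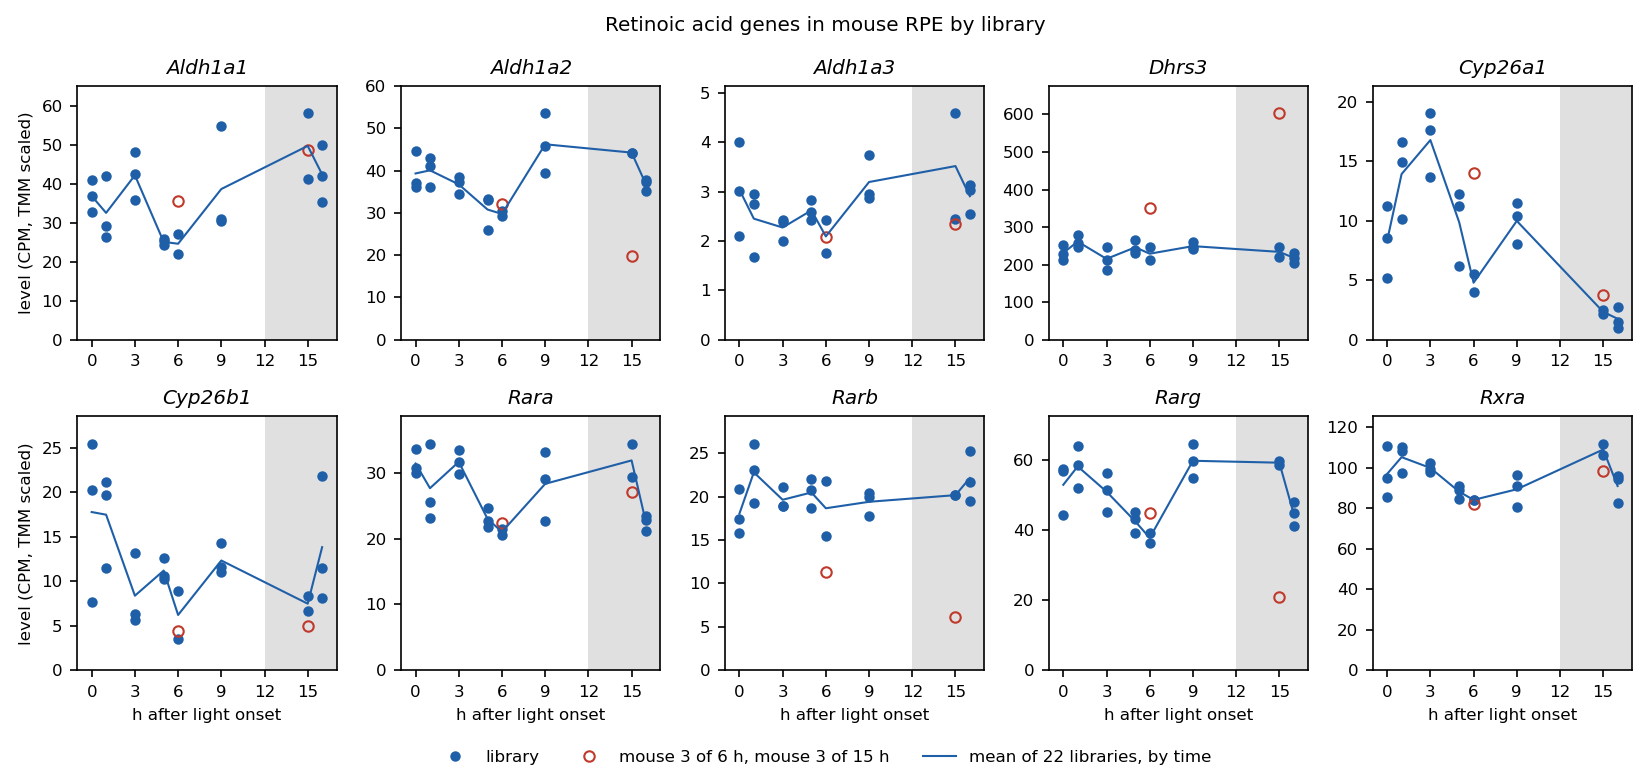
Levels of the 10 members in each library, in CPM, against hours after light onset; the dark phase is shaded, open red circles are mouse 3 of 6 h and mouse 3 of 15 h, and lines join the means of the other 22 libraries. Cyp26a1 lies at 1.01 to 3.78 CPM at night and 4.02 to 19.1 CPM by day, and Aldh1a2, Rara and Rarg dip at 5 h and 6 h.

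Cyp26b1 (ENSMUSG00000063415, chromosome 6, 84571414 to 84593908, minus strand), the second retinoic acid hydroxylase, was not called between night and day. Mice at 0 h had 20.2, 25.5 and 7.61 CPM, at 1 h 19.7, 21.2 and 11.5 CPM, and at 3 h 13.1, 5.63 and 6.34 CPM. At 5 h the values were 10.3, 12.6 and 10.6 CPM, at 6 h 3.45, 8.93 and 4.41 CPM, and at 9 h 14.3, 11.6 and 11.1 CPM. Night libraries had 6.64, 8.27 and 4.96 CPM at 15 h, and 8.08, 11.5 and 21.8 CPM at 16 h. Mice of 1 time differed widely, with 7.61 to 25.5 CPM at 0 h, and night and day overlapped.

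The night minus day log2 difference of Cyp26b1 was -0.10 (SE 0.26, adjusted p = 0.868), and its span over the times was 1.66 (adjusted p = 0.167; in 22 libraries adjusted p = 0.249). DESeq2 called it over time (adjusted p = 0.0095) and lower than at 0 h at 6 h (log2 -1.67, adjusted p = 0.0244) and 15 h (-1.42, adjusted p = 0.0254). In 24 and in 22 libraries edgeR made none of these calls, and without mouse 2 of 15 h it called Cyp26b1 lower at 15 h than at 0 h.

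The balance of the pair was compared within each library, as a description with no test. Per kb of gene model, Cyp26a1 exceeded Cyp26b1 in 2 of 6 night libraries, with ratios of 0.14 to 2.31, and in 15 of 15 day libraries, with ratios of 1.36 to 10.2. The highest night ratio was that of mouse 3 of 15 h, and without it 1 of 5 night libraries was above 1. That library, mouse 1 of 16 h, had a ratio of 1.04. The deposited length of Cyp26a1, used here, is 1773 bases, and GENCODE vM21 gives 1983. The longer length would lower every ratio and put mouse 1 of 16 h below 1. The share of Cyp26a1 in the summed level per kb of the pair was 43.1% ± 20.1 at night (SD, n = 6) and 75.1% ± 10.5 by day (SD, n = 15). The ratio was 1.28 to 2.07 at 0 h and 3.16 to 10.2 at 3 h, where Cyp26a1 was at its highest, and it was 0.14 to 1.04 at 16 h.

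**Figure D3:**
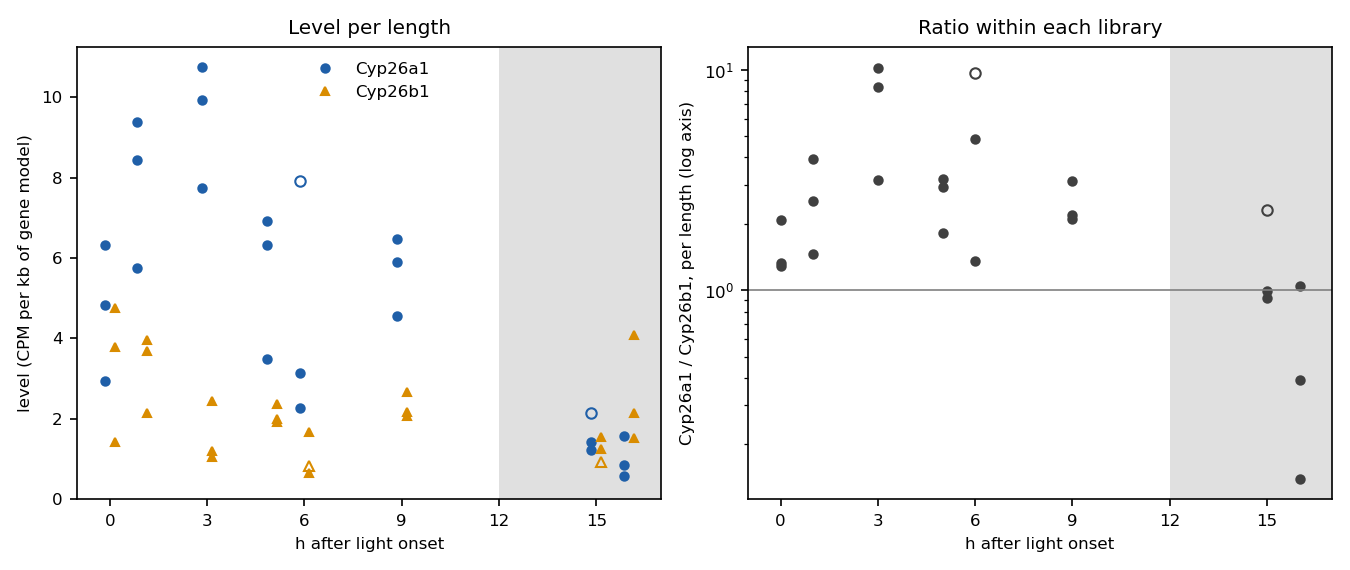
Left, Cyp26a1 and Cyp26b1 in CPM per kb of gene model in each library; right, their ratio in each library on a log axis with a line at 1. Open symbols are mouse 3 of 6 h and mouse 3 of 15 h, and the dark phase is shaded; the ratio is above 1 in 2 of 6 night libraries and 15 of 15 day libraries.

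Cyp26c1, the third enzyme of the family, lies beside Cyp26a1 on chromosome 19 (37685581 to 37693398). It is named after its values were seen. It had 0 to 12 counts in night libraries and 3 to 39 counts in day libraries, with overlap. Its night minus day log2 difference was -1.47 (adjusted p = 0.0843), and -1.16 in 22 libraries (adjusted p = 0.0471).

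Of the enzymes that make retinoic acid, Aldh1a2 made up most of the level per kb of gene model. In 22 libraries it held 68.1% ± 4.48 (SD, n = 22) of the summed level per kb, Aldh1a1 29.5% ± 4.57 and Aldh1a3 2.43% ± 0.539.

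Aldh1a1 (ENSMUSG00000053279, chromosome 19, 20492715 to 20643462) had a higher mean at night, a difference that did not pass edgeR's test. Night libraries had 58.2, 41.4 and 48.8 CPM at 15 h and 42.1, 35.4 and 49.9 CPM at 16 h. The day ranged from 22.1 to 54.9 CPM with a median of 30.4 CPM, and its 4 lowest values were those of 5 h (25.9, 25.3 and 24.2 CPM) and of mouse 1 of 6 h (22.1 CPM). Night and day overlapped. The mean was 46.0 ± 8.01 CPM at night (SD, n = 6) and 33.4 ± 9.66 CPM by day (SD, n = 15), with a log2 difference of 0.48 (SE 0.13, adjusted p = 0.0787; in 22 libraries 0.52, SE 0.15, adjusted p = 0.055). DESeq2 called it higher at night (adjusted p = 0.0218, with 2.0% of genes called higher) and over time (adjusted p = 0.0103), and edgeR called it with 15 h alone as the night (0.59, adjusted p = 0.027). That call was lost in 22 libraries (0.63, adjusted p = 0.15), with limma-voom (adjusted p = 0.0961), and without mouse 1 or mouse 3 of 15 h.

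Aldh1a2 (ENSMUSG00000013584, chromosome 9, 71215789 to 71296243), the main retinoic acid synthase of the embryo, changed over time in 22 libraries and not in 24. It had 36.2, 37.1 and 44.7 CPM at 0 h, 43.1, 41.1 and 36.1 CPM at 1 h, and 38.5, 37.3 and 34.5 CPM at 3 h. The values were 33.3, 26.1 and 33.0 CPM at 5 h, 29.2, 30.4 and 32.1 CPM at 6 h, and 45.8, 53.6 and 39.4 CPM at 9 h. At 15 h they were 44.3, 44.3 and, in mouse 3, 19.9 CPM, and at 16 h 35.2, 37.8 and 37.3 CPM. Apart from mouse 3 of 15 h, the lowest values were those of 5 h and 6 h, all of them under those of 9 h. The span over times was 0.63 in 22 libraries (adjusted p = 0.00425) and 0.60 in 24 libraries (adjusted p = 0.409), and night minus day was 0.0031 (SE 0.12, adjusted p = 0.992).

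Aldh1a3 (ENSMUSG00000015134, chromosome 7, 66390890 to 66427517), the third synthase, was low throughout, at 1.67 to 4.59 CPM. It had 2.34 to 4.59 CPM at night and 1.67 to 3.75 CPM by day, which overlapped. It was not called over time (span 0.61; in 22 libraries adjusted p = 0.493) or between night and day (log2 0.27, SE 0.17, adjusted p = 0.411). Its depth was 26 to 74 counts per library.

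Dhrs3 (ENSMUSG00000066026, chromosome 4, 144892827 to 144928209), which reduces retinal back to retinol and is itself known to respond to retinoic acid, ranged from 187 to 279 CPM in 22 libraries. Mouse 3 of 15 h had 603 CPM and mouse 3 of 6 h 350 CPM, the highest values of all. RPE markers summed to 123000 CPM in the first of these mice and 57900 CPM in the second, against 37300 to 53000 CPM in the other 22. Red blood cell markers summed to 8770 CPM and 3330 CPM in the same mice, against 399 to 1930 CPM in the others, and mitochondrial genes took 0.837% and 3.34% of counts, against 3.84% to 6.81%. The part of these differences was not tested. Dhrs3 was not called over time in 24 libraries (adjusted p = 0.443) or in 22 (span 0.28, adjusted p = 0.191), and night minus day was 0.17 (SE 0.15, adjusted p = 0.57).

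Among the RARs, Rarg led per kb of gene model. In 22 libraries it held 54.0% ± 3.08 (SD, n = 22) of their summed level per kb, Rara 28.3% ± 2.91 and Rarb 17.7% ± 3.17. The length used for Rarb includes 38.4% of bases shared with genes on the opposite strand, so its share, and its order against Rara, are uncertain.

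Rarg (ENSMUSG00000001288, chromosome 15, 102234938 to 102257517) had 44.2, 56.9 and 57.5 CPM at 0 h, 58.5, 63.8 and 52.0 CPM at 1 h, and 51.5, 56.3 and 45.0 CPM at 3 h. It had 45.0, 39.0 and 43.2 CPM at 5 h, 36.4, 39.1 and 44.9 CPM at 6 h, and 64.6, 59.7 and 54.8 CPM at 9 h. At 15 h it had 58.6, 59.8 and, in mouse 3, 21.0 CPM, and at 16 h 47.9, 44.8 and 41.0 CPM. Values were low at 5 h and 6 h and again at 16 h, and those of 5 h and 6 h did not overlap with 9 h. The span over times was 0.66 in 22 libraries (adjusted p = 0.00113) and 0.57 in 24 libraries (adjusted p = 0.505). At 6 h it was lower than at 0 h in 22 libraries (log2 -0.48, SE 0.12, adjusted p = 0.0329) and was not called in 24 (-0.40, SE 0.24, adjusted p = 0.657).

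Rara (ENSMUSG00000037992, chromosome 11, 98927818 to 98974942) had 29.9, 30.7 and 33.6 CPM at 0 h, 34.4, 25.5 and 23.1 CPM at 1 h, and 33.5, 31.6 and 29.9 CPM at 3 h. It had 22.6, 21.7 and 24.6 CPM at 5 h, 21.5, 20.6 and 22.4 CPM at 6 h, and 33.2, 29.1 and 22.7 CPM at 9 h. At 15 h it had 34.5, 29.3 and 27.1 CPM, and at 16 h 23.4, 22.8 and 21.1 CPM. All values of 5 h, 6 h and 16 h lay below all those of 0 h and 3 h, and overlapped with those of 1 h and 9 h. These times were grouped with the values in view, as a description. The span over times was 0.59 in 22 libraries (adjusted p = 0.00883) and 0.56 in 24 libraries (adjusted p = 0.107). At 6 h it was lower than at 0 h in 22 libraries (log2 -0.57, SE 0.15, adjusted p = 0.04, with 0.886% of genes called lower), and DESeq2 called the same difference in 24 libraries (-0.56, adjusted p = 0.0321), which edgeR did not (-0.55, SE 0.15, adjusted p = 0.187).

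Rarb (ENSMUSG00000017491, chromosome 14, 16430839 to 16819156) ranged from 15.5 to 26.1 CPM in 22 libraries, with 11.3 CPM in mouse 3 of 6 h and 6.13 CPM in mouse 3 of 15 h. Night libraries had 20.2, 20.2 and 6.13 CPM at 15 h and 19.6, 21.7 and 25.2 CPM at 16 h, within or below the day range of 11.3 to 26.1 CPM. It was not called over time in 24 libraries (adjusted p = 0.749) or in 22 (span 0.35, adjusted p = 0.432), and night minus day was -0.08 (SE 0.17; in 22 libraries 0.06, SE 0.09, adjusted p = 0.793). Its exons share 38.4% of their bases (2020 of 5265) with genes on the opposite strand, chiefly Top2b, a DNA topoisomerase, while the other 9 members share none. If the reads carry no strand, which the library kit's standard form implies and the files do not state, reads of these genes cannot be told apart from those of Rarb there.

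Rxra (ENSMUSG00000015846, chromosome 2, 27676440 to 27762957), the partner of the RARs and of other nuclear receptors, had the narrowest span of the receptors called. It ranged from 80.6 to 112 CPM, with means in 22 libraries of 109 CPM at 15 h and 105 CPM at 1 h, and its 3 values at 6 h were 84.1, 84.0 and 81.8 CPM. In the order of the time means in 22 libraries, the only neighbouring times that did not overlap were 5 h (88.1 CPM, n = 3) and 6 h (84.1 CPM, n = 2). The gap was small, from 84.6 CPM as the lowest value at 5 h to 84.1 CPM as the highest at 6 h. The span was 0.36 in 22 libraries (adjusted p = 0.0399) and 0.34 in 24 libraries (adjusted p = 0.232).

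Over all members, edgeR called 1 of 10 over time (Cyp26a1) in 24 libraries, where 1.08% of all genes were called, and 1 with a 24 h component, where 1.67% were. At an unadjusted p under 0.05 the counts were 5 and 3. In 22 libraries 5 were called over time (Cyp26a1, Aldh1a2, Rara, Rarg and Rxra) and 1 with a 24 h component, against 15.6% and 6.12% of all genes. DESeq2 called 5 over time in 24 libraries (Cyp26a1, Cyp26b1, Aldh1a1, Rara and Rxra), against 10.7%. Of 70 pairs of member and later time against 0 h, edgeR called 0 in 24 libraries (0.223% of all such pairs of genes) with 12 at an unadjusted p under 0.05, edgeR called 4 in 22 libraries (2.51%), and DESeq2 called 5 in 24 libraries (2.11%).

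**Figure D4:**
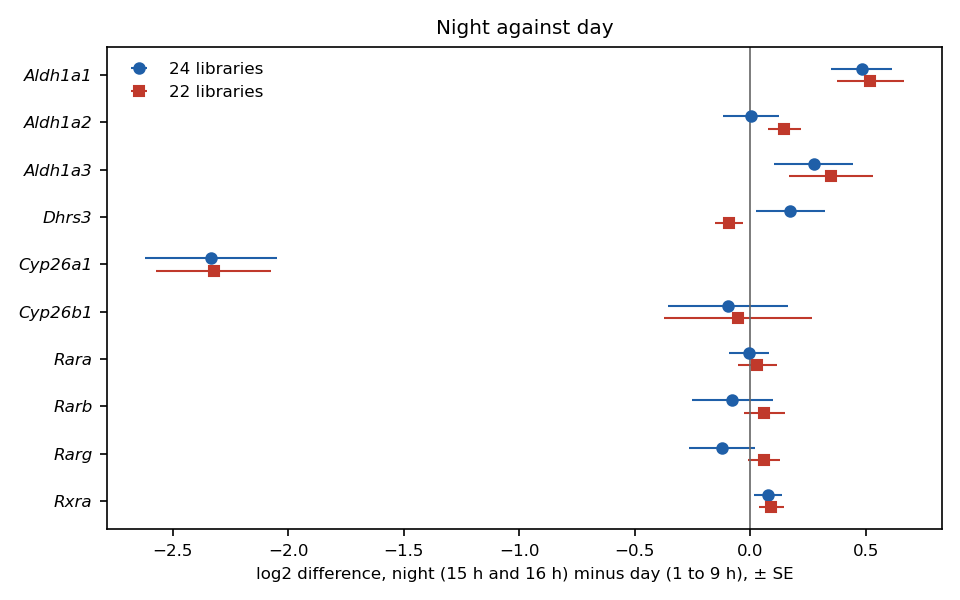
Log2 difference of night (15 h and 16 h) minus day (1 to 9 h) for each member, with SE, in 24 libraries (circles) and 22 libraries (squares). Cyp26a1 lies at -2.34 and -2.32, and the other 9 members lie between -0.12 and 0.52.

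The median night minus day difference of the 10 members was -0.00077, against -0.0051 over all genes tested, and the members apart from Cyp26a1 lay between -0.12 and 0.48 in 24 libraries. At 6 h against 0 h the median was -0.37 in 24 libraries and -0.50 in 22, against -0.00044 and -0.0081 over all genes, and 9 of 10 members were below 0 in each. All comparisons with 0 h share its 3 libraries. Rod markers summed to 2480 to 3870 CPM at 0 h, against 1130 to 1730 CPM at 6 h and at most 2200 CPM at any time after 0 h, in 22 libraries. Their part in the comparisons with 0 h was not tested.

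The dip at 5 h and 6 h was noticed in these values and is given as a description. All libraries of 5 h and 6 h lay below all of 9 h for 3 of 10 members in 24 libraries (Aldh1a2, Aldh1a3 and Rarg), and for 4 in 22 (also Aldh1a1), against 3.56% and 9.06% of all genes. Marker sums moved at the same times. Choroid endothelium markers summed to 402 to 547 CPM at 5 h and 365 to 372 CPM at 6 h, against 563 to 871 CPM at 9 h, in 22 libraries. Fibroblast markers summed to 1560 to 1870 CPM over 5 h and 6 h, against 1720 to 2230 CPM at 9 h. RPE markers were higher at the earlier times, with 44800 to 50700 CPM over 5 h and 6 h, against 39900 to 45200 CPM at 9 h. Their part in the dip was not tested.

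**Figure D5:**
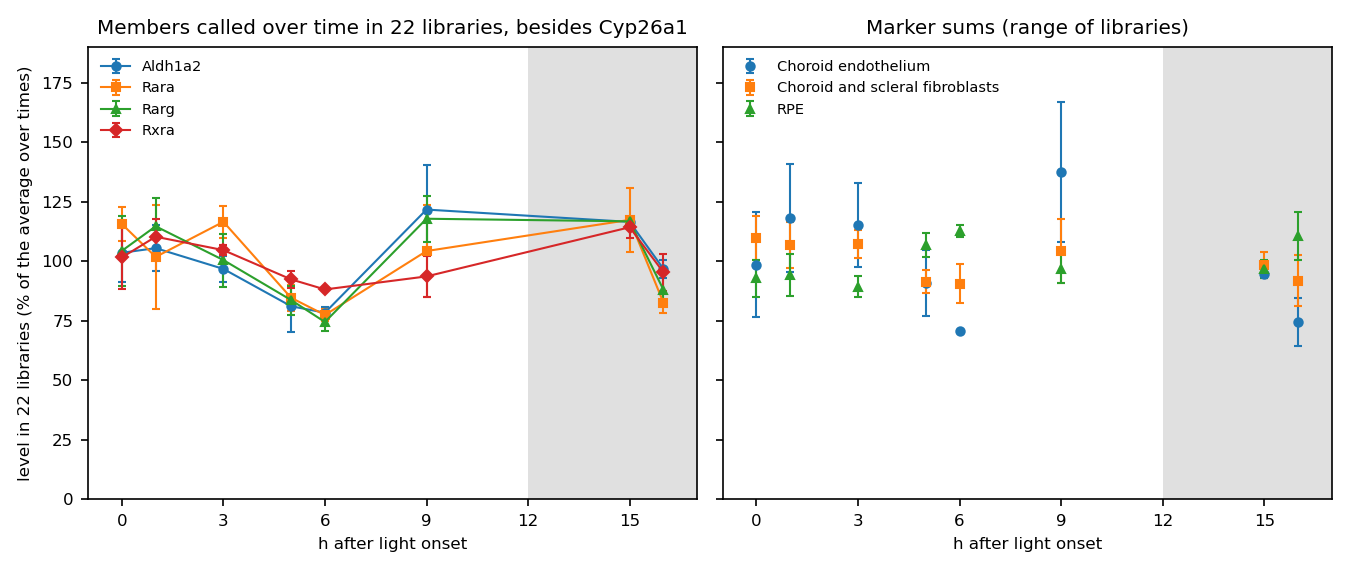
Left, mean ± SD in 22 libraries of the 4 members other than Cyp26a1 that were called over time, as a percentage of each gene's average over the times; right, the range over libraries of summed marker levels, on the same scale, with symbols at its middle. The 4 members are low at 5 h and 6 h, choroid endothelium markers are lowest at 6 h and 16 h, and RPE markers are highest at 6 h and 16 h.

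Other genes of the pathway were counted by lists. Of 14 tested genes that oxidise or reduce retinol, Adh1, an alcohol dehydrogenase that oxidises retinol, was called over time (adjusted p = 0.0119), with a 24 h component (log2 ratio 1.13, peak 18.6 h, adjusted p = 0.0157) and higher at night (log2 0.80, adjusted p = 0.0018, with 0.88% of genes called higher). It averaged 23.7 ± 4.35 CPM at 15 h and 16.2 ± 2.51 at 16 h, against 7.96 ± 1.64 at 5 h (SD, n = 3 each). In 22 libraries 3 of 15 were called over time, a share near the 15.6% of all genes: Adh1 (adjusted p = 0.000308), Rdh10, which makes most of the retinal used for retinoic acid in the embryo and averaged 3344 ± 34.4 CPM at 6 h (SD, n = 2) against 2452 ± 93.7 CPM at 0 h (SD, n = 3; adjusted p over time 0.00276), and Rdh11, a retinal reductase (adjusted p = 0.000234).

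Among 11 tested genes of retinoid binding, uptake and storage, Lrat was called over time, where 1.08% of all genes were. This gene, which esterifies retinol, had a span of 0.74 (adjusted p = 0.0405) and is also 1 of the RPE markers used here. In 22 libraries Lrat averaged 1251 CPM at 0 h and 2122 CPM at 6 h. RPE markers summed to 37300 to 44200 CPM and 48400 to 50700 CPM at these times. Their part in the call was not tested. In 22 libraries (15.6% of all genes) Fabp5, a fatty acid binding protein that can carry retinoic acid, was also called (span 0.65, adjusted p = 0.00901). None of 7 other genes of retinal oxidation and retinoic acid breakdown was called by edgeR in 24 libraries. Over time, 2 had an unadjusted p under 0.05. Cyp2s1 alone was called over time in 22 libraries (adjusted p = 0.0375), at a low mean level of 0.699 CPM. None of 17 receptor partners and coregulators was called in 24 libraries, with 0 at an unadjusted p under 0.05 over time. In 22 libraries 3 of 17 were called over time, near the 15.6% of all genes, and these were the coactivators Ncoa1, Ncoa3 and Kat2b. With a 24 h component 1 of 17 was called (6.12% of all genes), Ppard, a nuclear receptor for fatty acids (adjusted p = 0.0492).

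Of 22 tested genes known to respond to retinoic acid, Lrat alone, also an RPE marker here, was called over time in 24 libraries. In 22 libraries 12 were called. Of all genes, 1.08% and 15.6% were called. Among those with the lowest adjusted p were Lrat, the cyclin Ccnd1, the transcription factors Zbtb16 and Foxc1, and the growth inhibitor Btg2. Between night and day, edgeR called none in 24 libraries, with 6 at an unadjusted p under 0.05. In 22 libraries it called Zbtb16 and Rai14 higher at night (2.75% of all genes) and Cyp26c1 and Ccnd1 lower (1.89% of all genes). Zbtb16 averaged 9.73 ± 3.09 CPM at 15 h (n = 2) and 10.3 ± 2.53 at 16 h (n = 3), against 3.55 ± 0.234 at 5 h (SD, n = 3). The list does not sort genes by whether retinoic acid raises or lowers them, so these directions do not measure a response to it.

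The genes whose levels were most like those of Cyp26a1 over 22 libraries, among 11994 with a mean of at least 5 CPM, were Pgf, a placental growth factor of the VEGF family (Pearson r = 0.886), the transcription factor Atoh8 (0.877), the protease Tmprss2 (0.862), the mechanically gated channel Piezo2 (0.860) and the nucleotide hydrolase Samhd1 (0.842). These libraries share their times, and no test was made of the likeness. Over 24 libraries the values were 0.615 to 0.829. Between night and day Tmprss2 (log2 -0.86), Piezo2 (-0.77) and Samhd1 (-0.49) were called lower, where 0.509% of all genes were, and Pgf and Atoh8 were not. These genes were picked for likeness to Cyp26a1, itself low at night, so their calls are not independent of the choice.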

How the data were processed

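The authors' deposited table gives unnormalized read counts by gene, in 1 column per mouse (24 in all). STAR, HTSeq and the build mm10 are named per the submitters' processing notes. Their roles, versions and settings, and the annotation release, are not given in the sources used here. Libraries were made from 1 µg of RNA with NEBNext Ultra RNA, per the labels' protocols, a kit whose standard form leaves reads without strand. The 3 libraries of a time are separate mice per the labels, nothing more is said of litters or dissection days, and p-values measure the spread between these mice. None of 276 pairs of libraries agreed within sampling noise (lowest chi-square per degree of freedom 6.08).

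A filter on low counts (filterByExpr, minimum count 10) left 18065 of 54532 genes, with 99.9% of counts. edgeR 4.0.16 in R 4.3.3 fitted a quasi-likelihood model with TMM scaling, with a mean per time or with cosine and sine terms of 24 h. Adjustment of p-values (Benjamini-Hochberg) ran over all genes tested, and a gene was called when its adjusted p was under 0.05. Adjusted p-values are from edgeR unless DESeq2 (1.42.0) or limma (3.58.1, voom) is named. The span over times is the difference of the highest and lowest fitted time. The fits were tested on simulated data, drawn from a single mean profile apart from the changes put in. No simulated library stood apart from the rest, so that test does not cover such libraries. Alternatives were other scaling (DESeq2's size factors), no filter, DESeq2, limma-voom, the replicate number as a block, 22 libraries, each library left out, other times, and 15 h or 16 h alone as night. Promoter windows come from RefSeq (GRCm38.p6), for members other than Aldh1a3; the DR5 form with GGTTCA was added after the first motif output was seen.

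All 10 members are named, with listed pathway genes called over time or with a 24 h component in 24 or 22 libraries (at most 6 a list, by adjusted p over time in 22 libraries; 1 is not reported here) and the 5 genes whose log2 CPM (prior count 2) correlated best with Cyp26a1. Cyp26c1, Rai14 and the DR5 genes Blvrb and Tnfsf13b fall outside this rule and were named after their values were seen. Members, lists and markers were chosen with earlier results of these data known.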

Additional observations from a re-analysis of the deposited data

Results flagged for a closer look

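Within the 6 night libraries, 4 members had a single library far from the rest, measured by its gap to the nearest other library as a share of the whole range. Chance flags about 1 in 20 groups, and 10 members were looked at. Mouse 3 of 15 h, which stood apart from the other libraries over all genes, accounts for 3 of the 4. In it Aldh1a2 had 19.9 CPM, against 35.2 to 44.3 CPM in the other 5 night libraries. Rarb had 6.13 CPM there, against 19.6 to 25.2 CPM. Dhrs3 had 603 CPM there, against 206 to 247 CPM. Aldh1a3 had 4.59 CPM in mouse 1 of 15 h, against 2.34 to 3.15 CPM in the others.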

How the results depend on the processing

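Cyp26a1 was called between night and day under all 32 alternatives (-2.66 to -2.01) and over time under all 30. Its 24 h component ended only without 15 h and 16 h (members called: 0). Members called over time numbered 5 with DESeq2 and 5 in 22 libraries, and 1 to 4 with each library left out, 4 without mouse 3 of 15 h (Cyp26a1, Aldh1a2, Rara and Rarg). Members called between night and day numbered 2 (Cyp26a1 and Aldh1a1) with DESeq2 and with 15 h alone as night, and 1 to 2 with each library left out, 2 without the second mouse of 1 h, of 9 h or of 15 h, or without mouse 3 of 6 h. Member and time pairs called against 0 h numbered 1 with DESeq2's size factors, 1 with no filter, 5 with DESeq2 and 4 in 22 libraries, and 0 to 3 with each library left out: 1 without mouse 1 of 5 h or mouse 1 or 2 of 6 h, 2 without mouse 3 of 6 h or mouse 1 or 3 of 15 h, and 3 without mouse 2 of 15 h.

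Of all genes, 195 were called over time, against 1930 with DESeq2, 2870 in 22 libraries and 118 to 1215 with each library left out. A 24 h component was called in 302, against 763, 1126 and, without 0 h, 138 (203 to 789). Between night and day 159 were called higher and 92 lower, against totals of 143 with no filter, 651 with DESeq2 and 852 in 22 libraries (123 to 1172). Gene and time pairs against 0 h numbered 282, against 159, 2672 and 3233 (60 to 3533). The cause was not tested.

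The replicate numbers showed no pairing of the samples at the median. The median correlation of deviations was 0.016 in 84 same-numbered pairs (-0.317 to 0.535) and -0.0055 in 168 others (-0.490 to 0.375). A median cannot detect a link between only some same-numbered samples. With the replicate number as a block Cyp26a1 kept its calls, and 143 genes were called over time, 266 with a 24 h component and 226 between night and day.

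Night minus day differences of members that were not called changed sign as follows (log2). In 22 libraries Rara had 0.0307, Rarb 0.0607, Rarg 0.0600 and Dhrs3 -0.0929. With 16 h alone Cyp26b1 had 0.43, Rarb 0.18, Rxra -0.0294 and Dhrs3 -0.18. With 15 h alone Aldh1a2 had -0.0072 and Rara 0.21. Aldh1a2 had -0.0044 with no filter, -0.023 with limma-voom and -0.0048 with the block. Rara had 0.0013 with DESeq2's size factors, 0.0025 with DESeq2 and 0.0046 with limma-voom. With each library left out, Cyp26b1 ranged from -0.35 to 0.0365, Aldh1a2 from -0.0862 to 0.14, Rara from -0.0630 to 0.0296, Rarb from -0.20 to 0.11, Rarg from -0.24 to 0.0462 and Dhrs3 from -0.14 to 0.29. Counts were low for Cyp26c1 (0 to 39), Aldh1a3 (26 to 74) and the night values of Cyp26a1 (14 to 46). Cyp2s1 (mean 0.699 CPM) and Tnfsf13b (mean 1.77 CPM) were also low. How depth bears on the calls of these genes was not tested.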
